A study of Homo sapiens with 4 samples.

Results

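The ADAM and ADAMTS metalloproteases and the ADAMTS-like proteins were examined in SAS cells, a human tongue squamous carcinoma line, after stable knockdown of AEG-1. On each of 4 dual-channel arrays, RNA from SB cells (red channel) was hybridized together with RNA from SCt cells (green channel). SB cells carry the lentiviral plasmid pLKO.1 with the shRNA LYRIC shRNA-B, whose target is AEG-1 (gene symbol MTDH), and SCt cells are the control, the pLKO.1 vector in the labels and a scrambled shRNA in the study's methods. Both kinds of cells were kept under puromycin at 2 μg/ml for 14 days, both are stable selected derivatives of a single line, and 15 μg of RNA went into each labelling. The labels call the 4 arrays biological replicates, whereas the study's methods give a smaller number of independent replicates for comparisons of cultured cells, so what an array repeats is not settled. If they came from a single culture, the SDs and p-values below would cover technical spread only. In such bulk RNA, fewer cells with a transcript and less transcript per cell cannot be told apart.

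Members were the probes whose accession belongs to a RefSeq gene named ADAM, ADAMTS or ADAMTSL followed by a number. Gene names came from a RefSeq table (GRCh38.p14), since the files used here give accessions and no gene names. This found 74 probes for 46 genes among 34127 probes, of which 24826 could be named and 9301 could not. Of the 46 genes, 44 code for proteins in RefSeq, and ADAM5 and ADAM6 are transcribed pseudogenes.

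ADAMs are membrane proteins with a disintegrin domain that in many members goes with a zinc-dependent protease. Active ADAMs, ADAM10 and ADAM17 above all, cut the ectodomains off growth factor precursors, cytokines, Notch receptors and adhesion molecules at the cell surface, which is called shedding. ADAMTS enzymes are secreted proteases with thrombospondin repeats that cut proteoglycans, procollagens, cartilage oligomeric matrix protein (COMP) or von Willebrand factor in the extracellular matrix and blood, and ADAMTSL proteins share the repeats but lack the protease. Tissue inhibitors of metalloproteases (TIMPs), proprotein convertases, tetraspanins and iRhoms control when these enzymes act.

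The targeted gene was checked first. MTDH was lower in SB than in SCt cells on every array, with log2 ratios of −3.18, −3.01, −3.12 and −3.41 and a mean of −3.18 ± 0.17 (SD, n = 4; limma, adjusted p = 5.19e-10). All 9 squamous epithelial markers (keratins KRT5, KRT14, KRT6A and KRT17, with TP63, SFN, CDH1, EPCAM and DSG3) had signals that the software marked as well above background for both cell lines on each of the 4 arrays. The same held for 3 of 6 fibroblast genes, 3 of 3 endothelial genes and 4 of 4 leukocyte genes, a CD3E probe among them, so this software mark was not taken to show that a cell makes a transcript. No gene of the 4 marker lists passed an adjusted p of 0.05, and of the fibroblast genes COL1A1, COL1A2 and DCN carried the mark on all arrays, PDGFRB on some, and COL3A1 and LUM on none. Over all tested probes, the ratios of array pairs correlated only weakly to moderately, with r between 0.0473 and 0.461 (across 28505 probes, which are not independent replicates). No dyes were swapped, so dye and cell line cannot be told apart for a probe that binds the dyes unequally.

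Of the 74 probes, 52, from 30 genes, carried this mark in the red and in the green channel of all 4 arrays. These were also the probes that entered the test, since none was above background in a single channel alone on all arrays. Another 15 probes passed on some channels or arrays, and 7 on none. Among ADAMs with a known active protease, 16 of 20 probes and 10 of 12 genes were measured on all arrays, and only ADAM20 and ADAM28 were missing. Among ADAMs known for adhesion or lacking an active protease, 7 of 11 probes from 5 of 8 genes were measured. These 5 were ADAM7, ADAM11, ADAM22, ADAM23 and ADAM32, while ADAM2, ADAM18 and ADAM29 were not measured.

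The ADAMTS proteoglycanases had 2 of 7 genes measured. ADAMTS1 and ADAMTS15 were measured on all arrays, whereas ADAMTS4, ADAMTS5, ADAMTS8, ADAMTS9 and ADAMTS20 were not. ADAMTS4, the cartilage enzyme aggrecanase-1, ADAMTS9 and ADAMTS20 were above background in neither channel on any array, and ADAMTS5, aggrecanase-2, in the red channel of 1 array. Of the procollagen N-proteinases, which trim the amino-terminal propeptide off fibrillar collagens, only a single probe of ADAMTS2 was measured, and ADAMTS3 and ADAMTS14 were not. The COMP-cleaving enzymes ADAMTS7 and ADAMTS12 (5 of 5 probes), the von Willebrand factor-cleaving enzyme ADAMTS13 (2 of 2) and the ADAMTS-like genes (13 of 14) were nearly complete. Of the other ADAMTS genes, ADAMTS6, ADAMTS10, ADAMTS16 and ADAMTS19 were measured, and ADAMTS17 and ADAMTS18 were not.

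**Figure D1:**
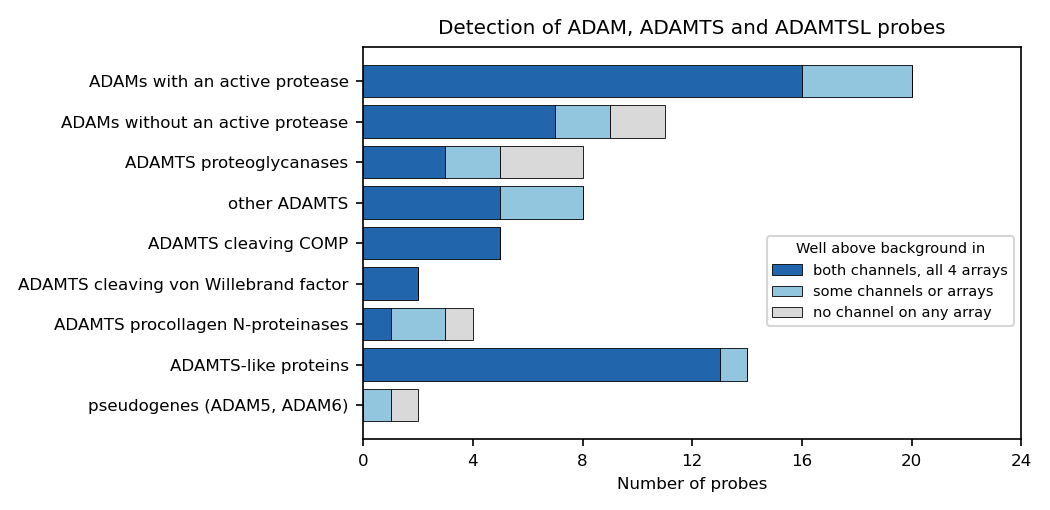
Number of probes per class (horizontal axis), split by whether a probe exceeded background in the red and green channels of all 4 arrays, in some channels or arrays, or in none. The dark bars sum to 52 of 74 probes, and the ADAMTS proteoglycanases have 3 of 8 there.

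No ADAM, ADAMTS or ADAMTSL probe differed between SB and SCt cells at an adjusted p of 0.05. The limma test called 0 of 52, where it called 3.70% of all tested probes (1055 of 28505), 1.32% higher and 2.38% lower in SB cells. At an unadjusted p under 0.05 there were 7 of the 52 (3 higher, 4 lower; 13.5%), against 18.7% of all tested probes. The methods' t-test gave 10 members an unadjusted p under 0.05, and 0 passed after adjustment. Of all 28505 tested probes, 3936 had an unadjusted p under 0.05 by that method. The members' share at this unadjusted level was thus above that of all probes there, and below it under limma. The 52 mean log2 ratios ran from −0.23 to 0.24, with a median of 0.0138 beside 0.0117 for all tested probes. Their median absolute value was 0.0725, beside 0.0661 for all tested probes.

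After the normexp and loess steps used here, the largest fold was 1.18, and no 95% interval of a member reached beyond 1.30-fold. Other processing gave wider limits, up to 1.57-fold with the series table, 1.56-fold with the software's ratios and 1.48-fold with the methods' t-test, and the lowest mean was −0.47 with the software's ratios. In 41 of 52 probes the whole interval lay within 1.2-fold. The SD between arrays had a median of 0.10, against 0.11 for all tested probes. In 13 of 52 probes (25%) the sign was the same on all 4 arrays, 9 higher and 4 lower in SB cells, beside 26.5% of all probes. The members' balance differed between arrays: 17 probes were higher and 35 lower on array 1, while 31, 30 and 36 were higher on arrays 2, 3 and 4. Their medians on arrays 1 to 4 were −0.059, 0.033, 0.050 and 0.063. Those of all tested probes were 0.001, 0.007, 0.016 and 0.013.

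**Figure D2:**
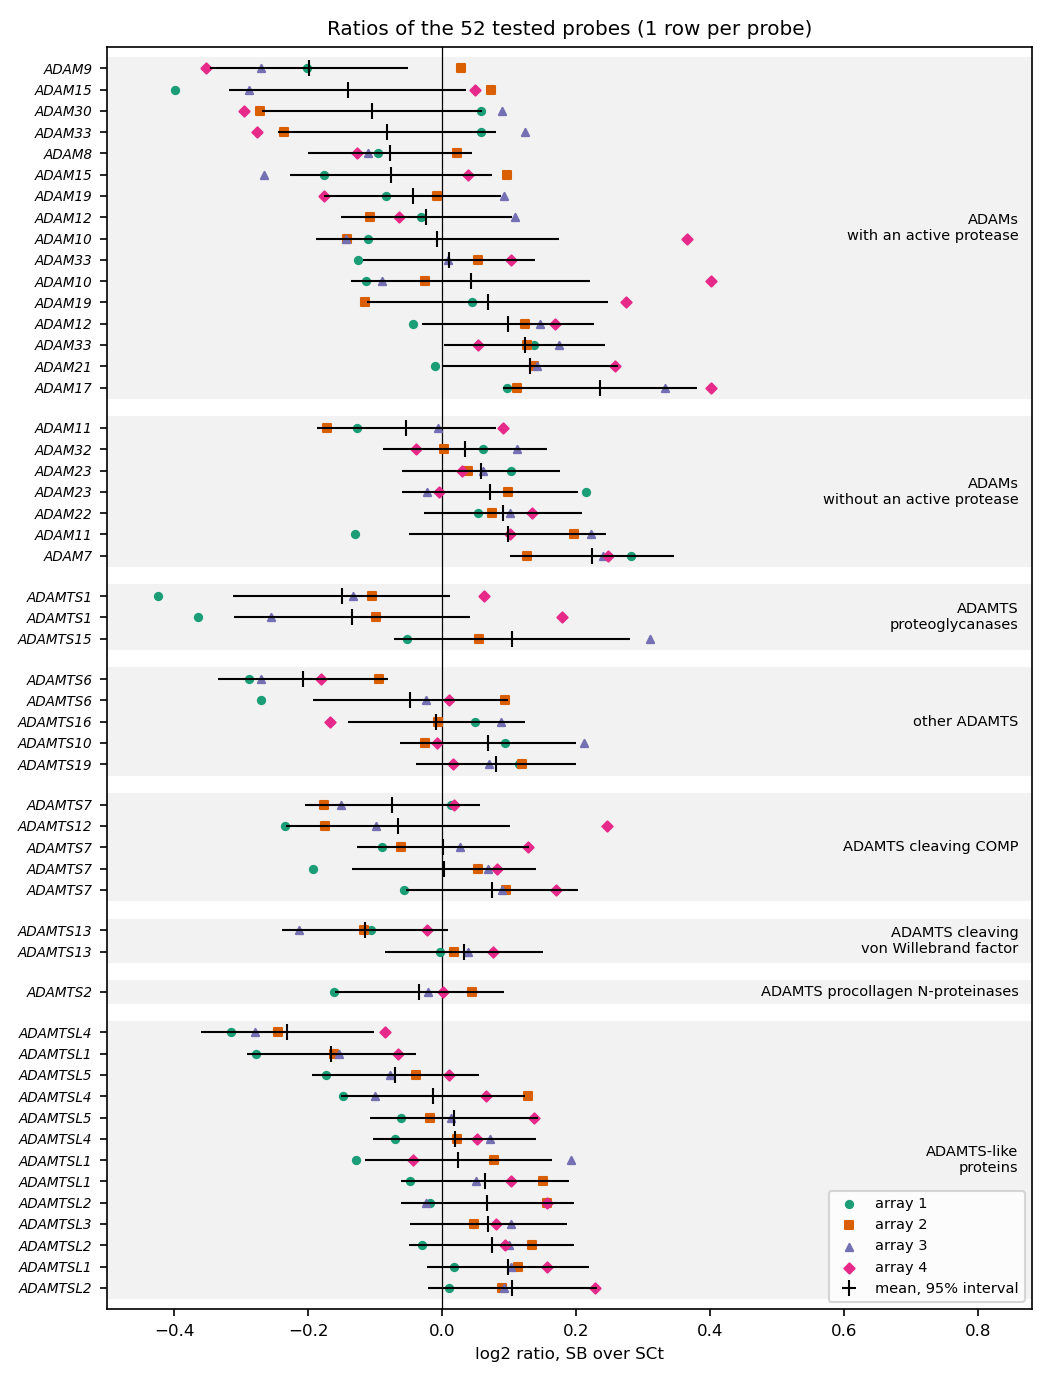
Log2 ratio of SB over SCt (horizontal axis) for each of the 52 tested probes, 1 row per probe, grouped by class. Coloured symbols are the 4 arrays, and the black tick and line are the mean and its 95% interval. All means lie between −0.23 and 0.24.

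ADAM17, the sheddase that releases tumour necrosis factor and most ligands of the epidermal growth factor receptor, had the highest mean ratio. Its normalized log2 levels in SB cells were 10.72, 10.97, 10.89 and 10.42 on arrays 1 to 4, and those in SCt cells were 10.62, 10.86, 10.56 and 10.02. SB cells were thus the higher on each array, although the ranges of levels overlap. The ratios were 0.10, 0.11, 0.33 and 0.40, with a mean of 0.24 ± 0.15 (SD, n = 4; adjusted p = 0.0769), a fold of 1.18 with an interval that ends at 1.30-fold.

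ADAM10, the principal sheddase of Notch and of E-cadherin, was measured by a pair of probes that gave almost the same picture. The ratios of A_33_P3243857 were −0.11, −0.14, −0.14 and 0.37, and those of A_23_P48886 were −0.11, −0.03, −0.09 and 0.40. Both were below 0 on 3 arrays and above it on array 4, and the means were −0.01 ± 0.25 (adjusted p = 0.974) and 0.04 ± 0.24 (adjusted p = 0.832; SD, n = 4). On array 4, the SCt level of A_33_P3243857 was 10.33, below its range of 10.80 to 11.16 on arrays 1 to 3, while the SB level of 10.70 lay close to the 10.69 to 11.01 of the others. The SCt level of ADAM17 was also lowest on array 4 (10.02), but so was its SB level (10.42). Without array 4, the means of ADAM10 were −0.13 and −0.08 (adjusted p = 0.299 and 0.612).

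ADAM9, a widely made sheddase, had the lowest mean among the active ADAMs. Its ratios were −0.20, 0.03, −0.27 and −0.35, so array 2 went against the others, with a mean of −0.20 ± 0.16 (adjusted p = 0.135). ADAM15, whose disintegrin domain binds integrins, split by array in both of its probes. A_23_P159227 gave −0.40, 0.07, −0.29 and 0.05 (adjusted p = 0.383), and A_33_P3380693 gave −0.18, 0.10, −0.27 and 0.04 (adjusted p = 0.604). Both were lower in SB cells on arrays 1 and 3 and higher on arrays 2 and 4.

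The other active ADAMs did not pass the threshold either. ADAM8, best known from leukocytes, gave −0.08 ± 0.07 (adjusted p = 0.499). ADAM12 (meltrin α) gave 0.10 ± 0.10 and −0.02 ± 0.09 at its measured probes (adjusted p = 0.405 and 0.869), and its remaining probe was not above background on all arrays. ADAM19 (meltrin β) gave −0.04 ± 0.11 and, over 3 arrays, 0.07 ± 0.20 (adjusted p = 0.751 and 0.715). The 3 probes of ADAM33, a gene linked to asthma, had means of 0.12, 0.01 and −0.08, and the highest of them was above 0 on all 4 arrays (0.14, 0.13, 0.17 and 0.05; adjusted p = 0.253). ADAM21, a testis gene, had a mean of 0.13 ± 0.11 (adjusted p = 0.268), but RefSeq holds 1 pseudogene of ADAM21 that its probe may also bind. ADAM30 split by array, with 0.06, −0.27, 0.09 and −0.30 (mean −0.10 ± 0.21; limma, adjusted p = 0.496). Over the class, 7 of 16 probes were above 0 and 9 below.

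ADAM7, an epididymal protein without protease activity, came closest to the threshold of all members. Its ratios of 0.28, 0.13, 0.24 and 0.25 were all above 0, with a mean of 0.22 ± 0.07 (SD, n = 4; adjusted p = 0.0505), a fold of 1.17. Its levels were 7.76, 7.85, 7.85 and 8.26 in SB cells and 7.48, 7.73, 7.61 and 8.02 in SCt cells, so the ranges overlap here too. In 3 alternative settings it passed the threshold: with trend and robust options the adjusted p was 0.0324, without a filter on dim probes 0.0476, and without the normexp offset 0.0490. It did not pass in the others. Without arrays 1, 2, 3 and 4 the adjusted p was 0.146, 0.115, 0.192 and 0.057. With the software's ratios it was 0.175, with median centring 0.0907 and with the methods' t-test 0.245. Of the class, 6 of 7 probes lay above 0, among them both of ADAM23 and that of ADAM22, receptors of the neuronal protein LGI1, at 0.06 to 0.09. ADAM32 gave 0.03, and the probes of ADAM11 gave 0.10 and −0.05, the latter the only value of the class below 0.

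**Figure D3:**
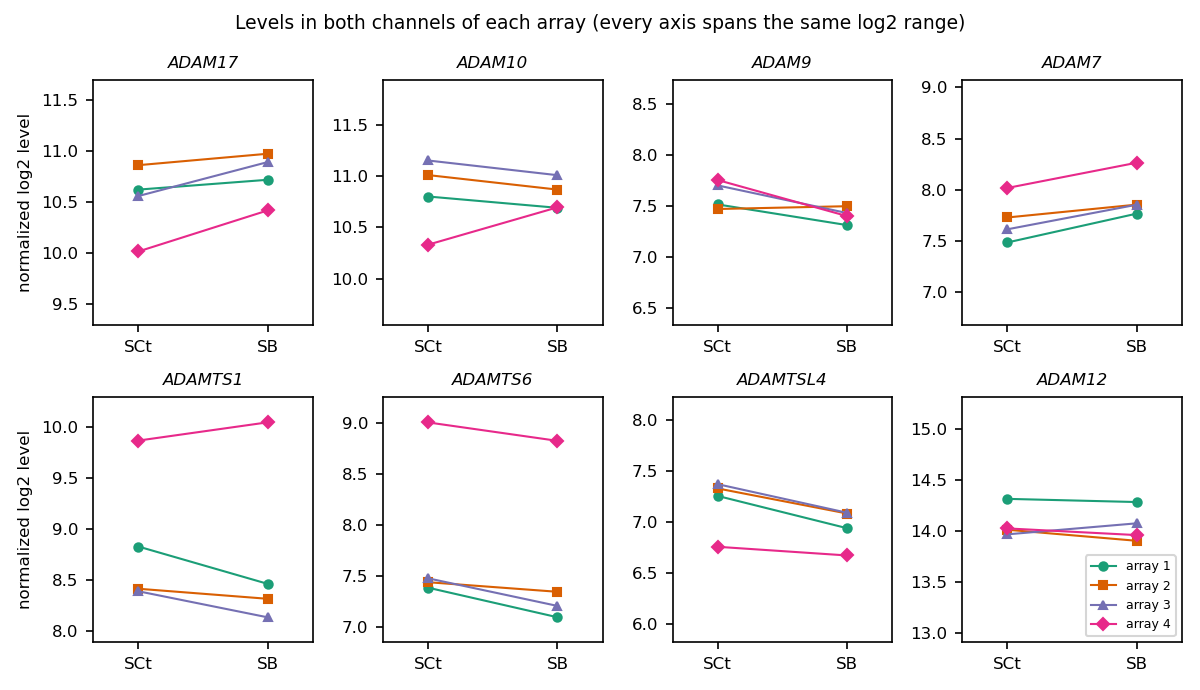
Normalized log2 level (vertical axis, each spanning the same log2 range) in SCt and SB cells for 8 probes, with a line per array. ADAMTS1 and ADAMTS6 sit higher in both channels on array 4 than on arrays 1 to 3, and ADAM10 rises from SCt to SB on array 4 only.

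Among the secreted enzymes, ADAMTS1, which cuts the proteoglycans aggrecan and versican, leaned towards lower values in SB cells at both probes. A_23_P211039 gave −0.42, −0.11, −0.13 and 0.06 (mean −0.15 ± 0.20; adjusted p = 0.306), and A_33_P3390013 gave −0.37, −0.10, −0.26 and 0.18 (mean −0.14 ± 0.24; adjusted p = 0.403). At each, arrays 1 to 3 were below 0 and array 4 above it. Without array 4, A_33_P3390013 had a mean of −0.24 and an adjusted p of 0.0350, and A_23_P211039 an adjusted p of 0.0621. ADAMTS15, another proteoglycanase, gave 0.10 ± 0.19 over 3 arrays (adjusted p = 0.533).

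ADAMTS1 stood out by its level on array 4 in both kinds of cells. The level of A_33_P3390013 was 8.46, 8.32, 8.14 and 10.05 in SB cells on arrays 1 to 4 and 8.83, 8.42, 8.39 and 9.87 in SCt cells. Averaged over the channels, array 4 was above the mean of the other arrays by 1.53 at this probe and by 1.5 at A_23_P211039. ADAMTS6, a relative of ADAMTS10 known from heart development and fibrillin microfibrils, showed the same: array 4 was above the others by 1.59 at A_23_P213319 and by 1.64 at A_33_P3286953. These 4 were the only ones of 51 member probes with a value whose level on array 4 differed by more than 2-fold from the other arrays, where 0.879% of all tested probes did (249 of 28332). On arrays 1, 2 and 3 no member did. The comparison of levels was made after these levels had been seen.

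At A_23_P213319, ADAMTS6 was lower in SB cells on each array, with ratios of −0.29, −0.09, −0.27 and −0.18 and a mean of −0.21 ± 0.09 (SD, n = 4; adjusted p = 0.0745), or −0.33 with the software's ratios (adjusted p = 0.0552). The other measured probe of the gene gave −0.27, 0.09, −0.02 and 0.01, with a mean of −0.05 ± 0.16 (adjusted p = 0.758). Its remaining probe was above background on 3 arrays only. ADAMTS10, ADAMTS16 and ADAMTS19 had means of 0.07, −0.01 and 0.08.

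None of the remaining enzymes passed the threshold. ADAMTS13 gave −0.11 ± 0.08 and 0.03 ± 0.03 (adjusted p = 0.306 and 0.805), and the measured probe of ADAMTS2 gave −0.03 ± 0.09 (adjusted p = 0.808). The 4 probes of ADAMTS7 ranged from −0.07 to 0.07. RefSeq lists 4 pseudogenes of ADAMTS7, so its signal may be shared and is uncertain. ADAMTS12, the other COMP-cleaving enzyme, gave −0.23, −0.17, −0.10 and 0.25, below 0 on arrays 1 to 3 and above it on array 4 (mean −0.07 ± 0.22; adjusted p = 0.703).

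The ADAMTS-like genes held the lowest mean of all members, at a single probe of ADAMTSL4, which binds fibrillin and is mutated in inherited lens dislocation. A_23_P115011, the only member probe spotted 10 times, gave −0.32, −0.24, −0.28 and −0.08, with a mean of −0.23 ± 0.10 (SD, n = 4; adjusted p = 0.0555), a fold of 1.17. Its levels were 6.94, 7.09, 7.09 and 6.67 in SB cells and 7.26, 7.33, 7.37 and 6.76 in SCt cells, lower in SB cells on each array, with ranges that overlap. It passed the threshold in 7 alternative settings: the mean was −0.47 with the software's ratios (adjusted p = 0.0187) and −0.28 without array 4 (adjusted p = 0.00867). Leaving out array 4 also raised the calls over all probes to 1991. The probe did not pass without arrays 1, 2 and 3 (adjusted p = 0.163, 0.201 and 0.230) or with the methods' t-test (adjusted p = 0.296). The other probes of ADAMTSL4 gave 0.02 ± 0.06 and −0.01 ± 0.13 (adjusted p = 0.898 and 0.935). The probes of the gene thus do not share the lower value.

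ADAMTSL1 (punctin) was similar in that its probes disagreed. A_33_P3302015 gave −0.28, −0.16, −0.15 and −0.07, each below 0, with a mean of −0.17 ± 0.09 (adjusted p = 0.146). The other 3 probes of the gene had means of 0.02, 0.06 and 0.10, with adjusted p-values from 0.377 to 0.882. ADAMTSL2, mutated in geleophysic dysplasia, was above 0 at each of its 3 probes (0.10, 0.07 and 0.07; adjusted p from 0.365 to 0.593). ADAMTSL3 gave 0.07 ± 0.03, and the probes of ADAMTSL5 gave 0.02 ± 0.09 and −0.07 ± 0.08. In this class, 9 of 13 probes were above 0, with a median of 0.02.

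The count of 0 members moved little with most settings and much with the loess step. In all alternatives but median centring, between 0 and 2 member probes passed, and ADAM7, ADAMTSL4 A_23_P115011 and, without array 4, ADAMTS1 A_33_P3390013 were the only ones. With median centring in place of loess, which leaves dye effects that vary with brightness in the data, 15 of 52 passed (7 higher, 8 lower; 28.8%). All probes rose to 31.4% called under that setting, 5599 higher and 3338 lower against 376 and 679 under loess. ADAM17 (0.33; adjusted p = 0.00752), ADAM9 (−0.32; adjusted p = 0.00944) and ADAMTS6 A_23_P213319 (−0.31; adjusted p = 0.0139) passed there, and so did both probes of ADAMTSL5 (0.28 and 0.25), of which A_33_P3245489 had been below 0 under loess.

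**Figure D4:**
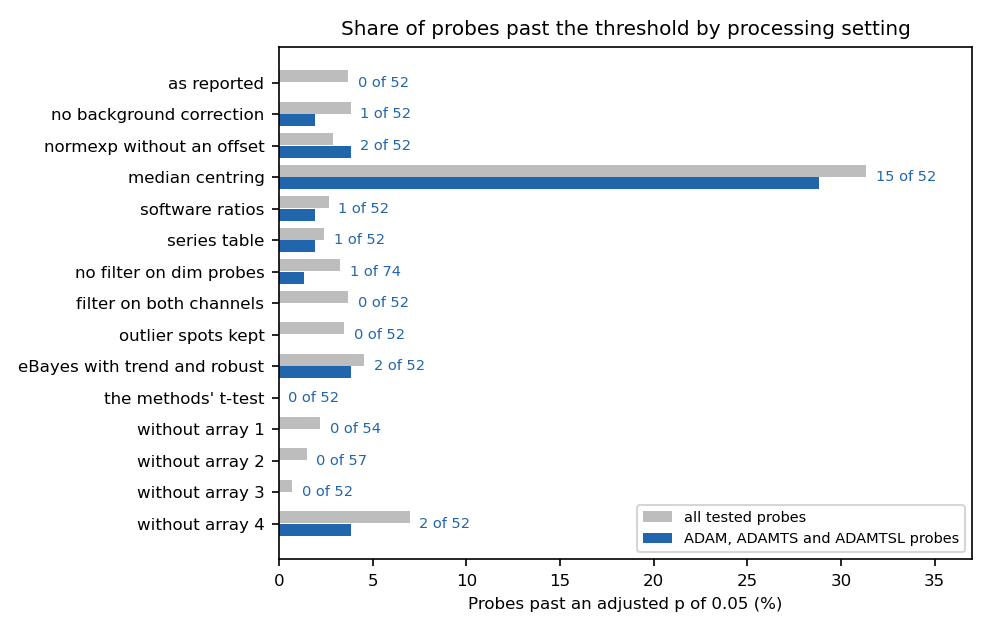
Share of probes past an adjusted p of 0.05 (horizontal axis, percent) under each processing setting, for all tested probes (grey) and for the ADAM, ADAMTS and ADAMTSL probes (blue, with their counts). Only median centring, with 15 of 52, takes the members above 2 calls, and all probes rise to 31.4% with it.

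Genes that regulate these enzymes or are cut by them were taken from 4 lists of 74 genes, of which 70 were tested at their brightest probe. The limma test called 8 of the 70, 1 higher and 7 lower in SB cells. Over all genes it called 3.51% (825 of 23484), 295 higher and 530 lower. TIMP3 and SDC4 each stand in more than 1 list and are counted in each below. The median of the 70 was −0.01, beside 0.01 for all genes. Median centring turned this split to 18 higher and 9 lower. The lists were drawn up with earlier results on some of their genes known, so the counts are a description.

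Among the 18 regulators of ADAM10 and ADAM17, 0 rose and 2 fell, where 3.51% of all genes were called. These 2 were TIMP3 and TIMP2. TIMP3, the inhibitor of ADAM17 and of several ADAMTS enzymes, had ratios of −0.91, −0.36, −0.43 and −0.26 (mean −0.49 ± 0.29; adjusted p = 0.0124), and array 1 was the lowest. It did not pass with the software's ratios (adjusted p = 0.0552) or without array 3 (adjusted p = 0.129), and its mean was −0.26 with median centring (adjusted p = 0.0420). TIMP2, chiefly an inhibitor of matrix metalloproteases, gave −0.34, −0.24, −0.30 and −0.45 (mean −0.33 ± 0.09; adjusted p = 0.00933; 0.0767 without array 3). TIMP1 gave −0.04, TIMP4 −0.03 and the membrane inhibitor RECK 0.01, none past the threshold. The tetraspanins that escort ADAM10 ranged from −0.22 (TSPAN5) to 0.11 (TSPAN33), and the iRhom genes RHBDF1 and RHBDF2, which bring ADAM17 to the surface, gave 0.08 and −0.11. None of them passed, nor did the convertase genes FURIN, PCSK5, PCSK6 and PCSK7.

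Of the 8 genes for the processing and uptake of ADAMTS proteins, 4 fell and 0 rose, where 3.51% of all genes were called. B3GLCT, which adds glucose to the fucose on thrombospondin repeats, fell by 0.48 on the log2 scale (−0.27, −0.44, −0.73 and −0.50; adjusted p = 0.00399, and 0.0526 without array 3). Its partner enzyme POFUT2, which adds that fucose, gave 0.09 (adjusted p = 0.420). SDC4 (syndecan-4), a cell-surface heparan sulphate proteoglycan, gave −0.48, −0.52, −0.60 and −0.19 (mean −0.45 ± 0.18; adjusted p = 0.00520; 0.0842 without array 3). With median centring its mean was −0.19 (adjusted p = 0.0526). SPOCK1 (testican-1) gave −0.28 ± 0.11 (adjusted p = 0.0281; 0.0537, 0.121 and 0.164 without arrays 1, 2 and 3, and 0.0547 with the series table), and TIMP3 was the other. The clearance receptor LRP1 gave 0.04 at its brightest probe and −0.19 at a dimmer probe (adjusted p = 0.806 and 0.0926).

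Of the 30 genes whose products ADAM10 or ADAM17 shed, 2 fell and 0 rose, where 3.51% of all genes were called. These were MET, the receptor of hepatocyte growth factor (−0.40, −0.25, −0.39 and −0.36; mean −0.35 ± 0.07; adjusted p = 0.00626, and 0.0682 without array 3), and again SDC4. The mean of MET was −0.22 with median centring (adjusted p = 0.0203). The ligands of the epidermal growth factor receptor did not pass, with AREG at −0.05, EREG at −0.03, HBEGF at −0.01, TGFA at 0.05 and BTC at 0.13. TNF gave 0.05, NOTCH1 −0.04, NOTCH2 0.04 and CD44 −0.02. TNFRSF1A, a tumour necrosis factor receptor, gave 0.20 and missed the threshold (adjusted p = 0.0778).

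Of 21 matrix substrates and ligands, 17 were tested, 1 rose and 1 fell, where 3.51% of all genes were called. VCAN (versican), a proteoglycan that ADAMTS1 cuts, gave 0.64, 0.52, 0.41 and 0.43, with a mean of 0.50 ± 0.10 (adjusted p = 0.000879), or 0.77 with the software's ratios. It was the only gene of the lists that stayed past the threshold with any single array left out. LTBP2, a microfibril protein, gave −0.63, −0.42, −0.50 and −0.09 (mean −0.41 ± 0.23; adjusted p = 0.0153; 0.0655, 0.0596 and 0.169 without arrays 1, 2 and 3). RELN (reelin) narrowly missed the threshold, with −0.39, −0.16, −0.10 and −0.39 (mean −0.26 ± 0.15; limma, adjusted p = 0.0517). Without array 3, which lowers the number of calls over all probes to 204, VCAN alone of the 8 genes passed. All 8 kept their sign in the 14 alternative settings.

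**Figure D5:**
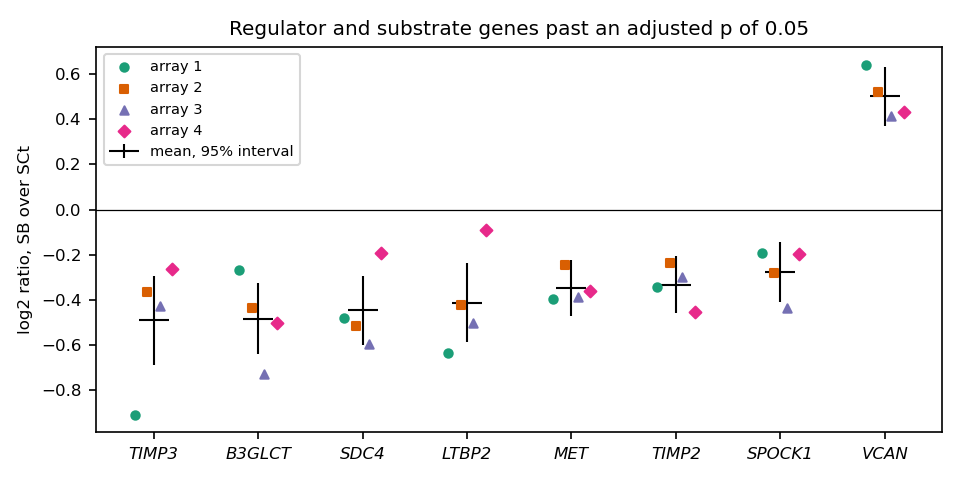
Log2 ratio of SB over SCt (vertical axis) for the 8 regulator and substrate genes past an adjusted p of 0.05. Symbols are the 4 arrays, and the black bars are the mean and its 95% interval. Only VCAN lies above 0, and each gene has 1 sign on all 4 arrays.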

How the data were processed

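Dual-channel Agilent human arrays were scanned by the authors, who deposited Feature Extraction 10.5.1.1 output in which median intensities and local backgrounds are linear and not normalized, with the software's log10 ratio of red over green after its own dye normalization. The authors also deposited a series table of log2 values, SB over SCt. Gene names came through accessions from RefSeq. With limma 3.58.1 in R 4.3.3, intensities were corrected by normexp (offset 50, 44495 spots), normalized by loess and averaged per probe without the 1377 control spots and the outlier spots (1.89% to 2.71% per array). A probe was tested if the software marked it as well above background in red on all 4 arrays or in green on all 4, and if at least 2 arrays had a value. The mean was tested against 0 (lmFit, eBayes), with the Benjamini-Hochberg adjustment over all 28505 probes. Levels followed loess and Aquantile normalization. A gene of the lists was read at its brightest probe.

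No spot was saturated. The number of arrays limits the precision, with a median half-width of the 95% interval of 0.13 (log2) over the members. The steps were tested on simulated data. Named were MTDH, the 5 highest and 5 lowest member probes, and 16 well-studied members where tested. So were members whose probes differed in call, and list genes past the threshold. A difference in sign alone did not count, as for ADAM11, ADAMTS7 and ADAMTSL5. Other members are given by value to complete their class. The members and lists were chosen with earlier results of these data known. All arrays share 1 slide and 1 scan, so no batch could be fitted.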

Additional observations from a re-analysis of the deposited data

Results flagged for a closer look

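Among the 4 ratios of ADAM10 at A_33_P3243857, array 4 (0.37) stood apart from arrays 1 to 3 (−0.11 to −0.14), and its gap was 0.935 of the whole range. This was the only 1 of 35 sets of named ratios with such an array. Of 54 sets of levels, 3 had one. The level of ADAMTS6 at A_23_P213319 was far higher on array 4 than on the others in SB cells (8.82 against 7.10 to 7.35; 0.856 of the range) and in SCt cells (9.01 against 7.39 to 7.48; 0.943 of the range). The SCt level of ADAM12 at A_33_P3310929 was higher on array 1 (14.31 against 13.97 to 14.02; 0.834 of the range). Chance alone would give such a gap in about 5% of sets.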

How the results depend on the processing

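No separate paired analysis was run. The 2 kinds of cells are compared within each array, so each ratio already is a pair and the test of the mean ratio uses that pairing. Over all probes, calls changed from 1055 to 8937 with median centring, 698 with the series table, 0 with the methods' t-test (3936 at an unadjusted p under 0.05) and 204 to 1991 with an array left out. Member calls changed from 0 to 15 with median centring, 2 without the normexp offset or with trend and robust options, and 1 with no background correction, the software's ratios, the series table or no filter on dim probes, and were 0 to 2 with an array left out (2 without array 4). Genes called in the 4 lists changed from 8 to 27 with median centring and 0 with the methods' t-test, and were 1 (without array 3) to 10 with an array left out. MTDH kept its value of −3.18 but not its call with the methods' t-test (adjusted p = 0.143). It was −3.24 to −3.10 with an array left out.

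Over all 52 tested members, 20 probes changed sign under at least 1 alternative, 13 of them with median centring and 13 with an array left out. The reversed values of 3 probes passed the threshold, all with median centring: ADAM12 A_33_P3310929 (0.21; adjusted p = 0.0370), ADAMTS7 A_33_P3423718 (−0.23; adjusted p = 0.0362) and ADAMTSL5 A_33_P3245489 (0.25; adjusted p = 0.0122). Of the 20, 10 were outside the rule for naming, ADAMTS7 A_33_P3423718 and ADAMTSL5 A_33_P3245489 among them, and the values that follow are those of the named probes. Median centring turned ADAM15 (0.0395 at A_23_P159227 and 0.162 at A_33_P3380693), ADAMTSL1 A_23_P342138 (−0.167), ADAM19 A_23_P81369 (−0.171), ADAM10 A_33_P3243857 (0.0865), ADAM21 (−0.0255) and ADAMTSL4 A_33_P3380063 (0.0168). The software's ratios turned ADAMTSL1 A_23_P342138 (−0.106) and ADAM10 A_33_P3243857 (0.0234), and the series table these (−0.106 and 0.0234) and ADAM19 A_23_P81369 (−0.179). ADAMTSL1 A_23_P342138 was −0.000705 with no background correction, and ADAM19 A_23_P81369 was −0.0652 with outlier spots kept. With an array left out, the signs that changed among the named probes were those of ADAM10 A_23_P48886 (−0.0768 to 0.0949) and A_33_P3243857 (−0.132 to 0.0376), ADAM12 A_33_P3310929 (−0.0682 to 0.00379), ADAM19 A_23_P81369 (−0.0358 to 0.159), ADAMTS2 (−0.0600 to 0.00827), ADAMTSL1 A_23_P342138 (−0.0316 to 0.0750) and ADAMTSL4 A_33_P3380063 (−0.0609 to 0.0310). The cause was not tested. With all arrays on 1 slide there was no slide term to fit, and with 22 of 74 probes not above background on all arrays, no statement is made on 16 of the 46 genes.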
